A study of Mus musculus with 13 samples.

Results

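The mitotic and DNA replication genes were examined in whole lung of mice that breathed normal or high oxygen. The set held 43 of the 32544 genes in the count table, matched by symbol: 24 mitotic genes, 16 DNA replication genes and 3 regulators of the step from G1 into S phase. Lung RNA came from WT C57BL/6J male mice that were 7 weeks old at purchase and carried no transgene. The Normoxia group (7 libraries) was kept in 21% oxygen and the Hyperoxia group (6 libraries) in 80% oxygen, both for 5 days, and the lungs were perfused before freezing. Messenger RNA was read from its 3′ end (Quant-seq), which counts transcripts near their tails.

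A dividing cell copies its DNA in S phase and separates the copies in mitosis. Replication genes such as the Mcm helicase, the clamp Pcna and the enzymes that supply deoxynucleotides are switched on around the start of S phase, largely through E2F factors. Mitotic genes such as the B-type cyclins, the centromere proteins and the spindle motors come on later, in G2 and M, through a promoter element called the cell cycle genes homology region (CHR) that is read by the DREAM and MuvB complexes. In adult lung few cells divide at rest, and in injured lung these transcripts are used as a readout of proliferation.

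The promoters of both classes were set side by side to show the sequence elements named above. RefSeq windows on GRCm38.p6, each of 300 bases (250 before the annotated start and 50 after it), were matched for 35 of the 43 genes, giving 38 windows. A CHR (TTTGAA or TTCGAA, either strand) was present in 17 of 21 mitotic windows (81.0%) and in 3 of the 15 replication windows, beside 19.2% of all 32851 windows. The mitotic genes with a window but neither of these CHR words were Birc5, Ccnb1, Cenpe and Nusap1, and the replication genes with one were Mcm2, Mcm7 and Cdc45. Other forms of the CHR were not searched. An E2F word (TTTCCCGC, TTTGGCGC, TTTCGCGC or TTTGCCGC, either strand) was present in 4.76% of the mitotic and 40.0% of the replication windows, beside 2.26% of all windows. A CCAAT box (CCAAT, either strand) was present in 90.5% of the mitotic and 80.0% of the replication windows, beside 37.4% of all windows. The 2 G1/S windows (of Ccne1 and E2f1) held none of these 3 motifs. The E2f1 window (chr2:154569377-154569676) lay wholly inside the gene as annotated in GENCODE M21 (chr2:154559407-154569892, minus strand). It therefore did not cover the start given there, and the Cdc6 window also lay wholly inside its gene. E2F words on opposite strands can overlap each other and are then counted separately. A match is a description of the letters and not a measured binding site.

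The windows of the 3 mitotic genes that fell in hyperoxia are printed for reference, with that of the helicase subunit Mcm6 as the replication contrast. Capitals mark the CHR in Cenpa and Kif23 and the E2F words in Mcm6. Whether the motifs relate to the changes was not tested. They read 5′ to 3′ in the direction of the gene: Cenpa at chr5:30666636-30666935 (plus strand), Kif23 at chr9:61946750-61947049 (minus strand), Nusap1 at chr2:119618048-119618347 (plus strand) and Mcm6 at chr1:128359656-128359955 (minus strand). Counted from the annotated start, the CHR began at base 17 in Cenpa and at base 3 in Kif23. The Nusap1 window held neither motif and no CCAAT box. In Mcm6, 2 E2F words overlapped and the third stood nearer to the start.
Cenpa: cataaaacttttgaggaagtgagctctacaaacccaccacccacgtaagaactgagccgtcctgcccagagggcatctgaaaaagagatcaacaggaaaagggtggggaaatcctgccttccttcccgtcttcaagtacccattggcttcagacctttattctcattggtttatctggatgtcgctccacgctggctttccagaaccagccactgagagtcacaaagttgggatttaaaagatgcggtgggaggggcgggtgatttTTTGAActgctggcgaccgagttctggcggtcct
Kif23: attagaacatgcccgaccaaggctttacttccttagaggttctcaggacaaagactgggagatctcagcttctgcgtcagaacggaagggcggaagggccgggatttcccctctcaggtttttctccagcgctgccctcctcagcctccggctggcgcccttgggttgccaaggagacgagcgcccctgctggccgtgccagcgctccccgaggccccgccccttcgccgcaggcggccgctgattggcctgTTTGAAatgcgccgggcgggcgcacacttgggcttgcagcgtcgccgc
Nusap1: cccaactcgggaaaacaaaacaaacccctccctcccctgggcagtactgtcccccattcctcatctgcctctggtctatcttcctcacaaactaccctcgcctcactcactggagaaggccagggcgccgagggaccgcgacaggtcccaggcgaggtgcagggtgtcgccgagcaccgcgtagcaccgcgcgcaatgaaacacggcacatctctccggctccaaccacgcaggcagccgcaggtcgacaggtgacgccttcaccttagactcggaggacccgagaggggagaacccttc
Mcm6: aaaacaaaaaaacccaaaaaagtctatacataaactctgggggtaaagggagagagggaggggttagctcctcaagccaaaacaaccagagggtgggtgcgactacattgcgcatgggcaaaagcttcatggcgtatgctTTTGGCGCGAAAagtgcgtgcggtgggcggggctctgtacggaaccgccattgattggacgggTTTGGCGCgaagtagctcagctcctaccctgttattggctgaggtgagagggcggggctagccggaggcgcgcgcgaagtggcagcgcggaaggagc

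Library totals ran from 1607111 to 4540288 counts. The level of a gene is given as CPM, the share of a library's counts on a common scale, scaled by TMM, a factor for library composition, and 3 counts corresponded to 0.656 to 1.84 CPM depending on the library. Hyperoxia 1 stood apart: its correlation with the other libraries was 0.721 to 0.833, against 0.854 to 0.967 among the others. The sample names also carry letters in 2 runs, B to M (5 Normoxia, 3 Hyperoxia) and O to S (2 Normoxia, 3 Hyperoxia), whose meaning is not stated, and the main results are also given within each run. Nothing in the labels ties a library to a separate animal, so p-values measure the spread between these libraries.

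In hyperoxia a few mitotic genes changed, most of them downward, and no replication gene passed the test. Of the 31 genes with enough counts to test, 3 fell (Cenpa, Nusap1 and Kif23), 1 rose (Ccna2) and 27 did not pass (edgeR quasi-likelihood test, Benjamini-Hochberg adjusted p under 0.05 over 12496 genes). All 4 were mitotic. Across all genes tested 10.8% fell and 11.8% rose, and 3 of 17 mitotic and 0 of 12 replication genes falling are small counts to set against that background. At an unadjusted p under 0.05, 7 of the 31 were lower and 1 was higher, beside 17.2% lower and 17.5% higher across all genes tested. The log2 fold change of hyperoxia over normoxia was below 0 for 27 of the 31 (87.1%), and for 52.2% of all genes tested. Its median was -0.50 over the 17 mitotic genes, -0.27 over the 12 replication genes and -0.03 over all genes. These medians moved with the filter: the replication median was -0.075 with no filter, and the mitotic median -0.24 over the 8 genes with at least 10 counts in every library. In tissue RNA, fewer cells of a type and less RNA per cell cannot be told apart.

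**Figure D1:**
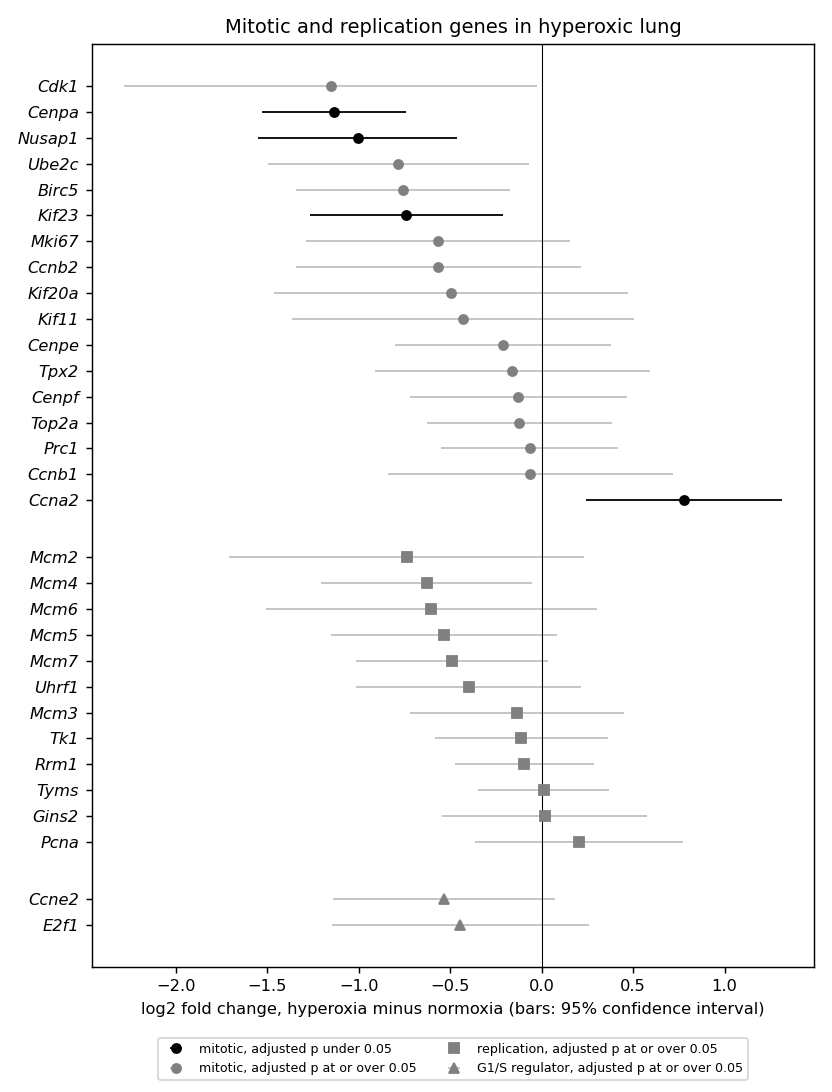
Log2 fold change of hyperoxia over normoxia for the 31 tested genes (horizontal axis) with the 95% confidence interval as a bar; genes are grouped as mitotic (circles), replication (squares) and G1/S regulators (triangles). Black marks passed the test: Cenpa, Nusap1 and Kif23 lie to the left of 0 and Ccna2 to the right, and 27 of the 31 points lie below 0.

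The centromere gene Cenpa, which encodes the histone H3 variant that marks centromeres, gave the clearest separation. Its level in Normoxia was 15.3 CPM at the lowest, 17.5 at the median and 21.6 at the highest, and in Hyperoxia 7.00, 8.39 and 11.3. All 6 Hyperoxia libraries lay below all 7 Normoxia libraries. Across all genes tested, 5.23% had Hyperoxia wholly below Normoxia. The log2 fold change was -1.13 (SE 0.185, 95% interval -1.53 to -0.74, edgeR adjusted p = 0.000419), and the gene passed in each of the 13 fits that left out 1 library. Full separation over all libraries fixes in advance that the groups are apart within each run of letters. Levels there were 15.3 to 21.6 against 8.34 to 11.3 CPM in B to M and 17.3 to 17.5 against 7.00 to 8.44 CPM in O to S. With the fewer libraries of B to M alone the adjusted p was 0.0650, and in O to S it was 0.0158 (edgeR). Cenpa is annotated at chr5:30666777-30674830 on the plus strand (GENCODE M21, GRCm38), with no other protein-coding gene over it.

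The other centromere genes did not pass. Cenpe, a kinetochore motor, had a log2 fold change of -0.21 (95% interval -0.80 to 0.38) and Cenpf, a kinetochore protein, one of -0.13 (-0.72 to 0.47). Both intervals lie within 1 log2 unit of 0 and above the Cenpa estimate.

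Among the 6 spindle and cytokinesis genes, 2 fell. Nusap1, which binds and bundles spindle microtubules, was at 7.47, 14.7 and 17.5 CPM (lowest, median, highest) in Normoxia and at 4.29, 5.97 and 10.003 CPM in Hyperoxia. In 4 of the 6 Hyperoxia libraries it was below every Normoxia library. Its log2 fold change was -1.01 (SE 0.257, edgeR adjusted p = 0.0101), it passed in 13 of 13 fits without 1 library, and its estimate was -1.04 (adjusted p = 0.118) within B to M and -0.93 (adjusted p = 0.103) within O to S.

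Kif23, a motor of the central spindle needed for cytokinesis, was at 6.35, 11.1 and 12.9 CPM in Normoxia and at 3.75, 5.74 and 8.34 CPM in Hyperoxia, and the groups overlapped. Its log2 fold change was -0.74 (SE 0.249, edgeR adjusted p = 0.0420). It passed in 3 of the 13 fits without 1 library, with adjusted p from 0.0265 to 0.0997, so its call depended on which libraries were used. Without Hyperoxia 1 it was -0.64 (adjusted p = 0.0619). The groups overlapped within B to M (6.35 to 12.9 against 3.75 to 8.34 CPM). Within O to S, with only 2 Normoxia and 3 Hyperoxia libraries, they did not (8.33 to 11.1 against 5.25 to 6.56 CPM). The share of all genes apart within that run was not computed. The log2 fold change was -0.72 (adjusted p = 0.287) in B to M and -0.71 (adjusted p = 0.160) in O to S, by edgeR. With the run of letters as a term in the fit it did not pass either (adjusted p = 0.0552, edgeR).

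The remaining 4 did not pass. The spindle motor Kif11 (-0.43), the cytokinesis motor Kif20a (-0.50), the spindle assembly factor Tpx2 (-0.16) and the midzone microtubule crosslinker Prc1 (-0.07) had intervals that included 0. Kif11 was at 0 in Hyperoxia 2, and without that library its log2 fold change was -0.15. Kif20a was at 0 in Hyperoxia 1, and without that library its log2 fold change was -0.24.

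Of the cyclins and Cdk1, Ccna2, the cyclin A of S phase and G2, was the 1 gene that rose. It was at 17.5, 22.8 and 37.4 CPM in Normoxia and at 26.1, 35.9 and 76.4 CPM in Hyperoxia, the groups overlapped, and 2 of the 6 Hyperoxia libraries lay above every Normoxia library. The log2 fold change was 0.78 (SE 0.252, 95% interval 0.24 to 1.31, edgeR adjusted p = 0.0360). It passed in 7 of 13 fits without 1 library, and without Hyperoxia 3, the highest library, it was 0.54 (adjusted p = 0.0784). Within the runs of letters it was 1.10 (adjusted p = 0.0822) and 0.37 (adjusted p = 0.314).

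The Ccna2 counts cannot be separated from those of its neighbour with the sources used here. Ccna2 (chr3:36564865-36572150, minus strand, GENCODE M21) overlaps Exosc9, a subunit of the RNA exosome on the opposite strand, by 863 bases, and the overlap covers the 3′ end of Ccna2, where Quant-seq reads fall. No source used here says whether reads were counted by strand. Exosc9 rose as well, from 16.1, 23.1 and 33.4 CPM in Normoxia to 25.6, 42.7 and 48.5 CPM in Hyperoxia, with 4 of 6 libraries above every Normoxia library. Its log2 fold change was 0.69 (SE 0.204, edgeR adjusted p = 0.0220), and 0.81 (adjusted p = 0.0842) and 0.53 (adjusted p = 0.245) within B to M and O to S. Whether the Ccna2 counts include Exosc9 reads was not tested.

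**Figure D2:**
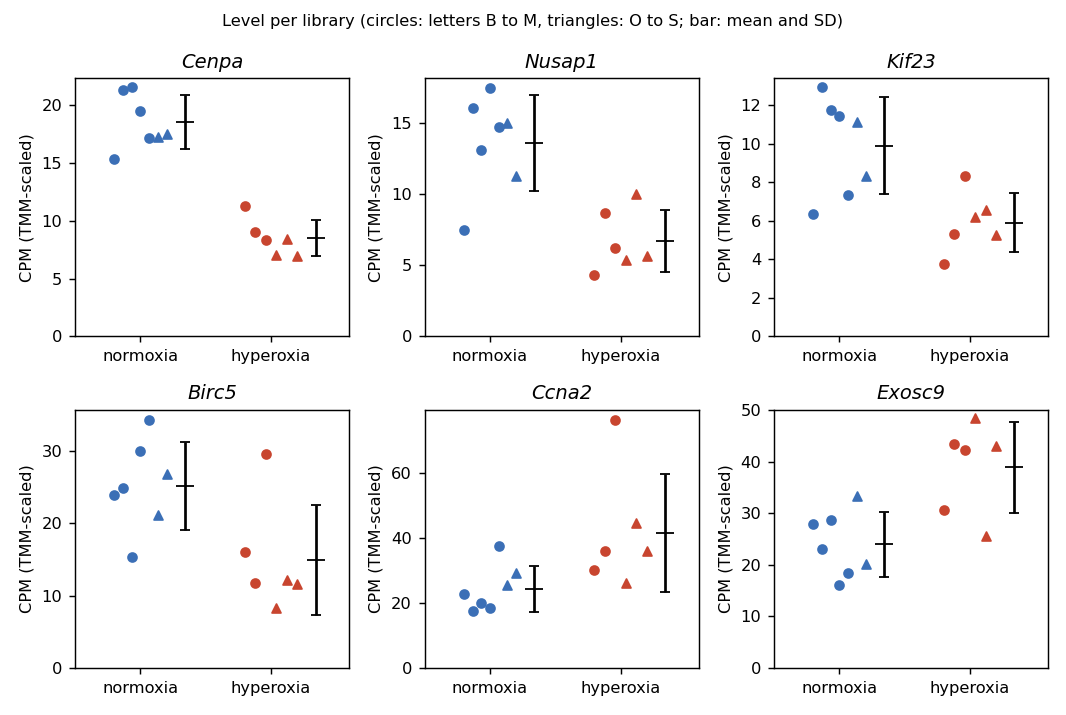
TMM-scaled CPM (vertical axis, from 0) in each Normoxia and Hyperoxia library for Cenpa, Nusap1, Kif23, Birc5, Ccna2 and the neighbour Exosc9; circles are letters B to M, triangles O to S, and the bar gives mean and SD. The Cenpa groups do not overlap, the other genes' groups do, and 1 Hyperoxia library lifts Ccna2 to 76.4 CPM.

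The partner kinase Cdk1, which drives entry into mitosis, had the largest log2 fold change of this role and of all 31 genes without passing. It was at 5.06, 7.69 and 18.3 CPM in Normoxia and at 0, 2.43 and 10.003 CPM in Hyperoxia. The log2 fold change was -1.15 (SE 0.532, edgeR adjusted p = 0.135). Hyperoxia 1 held no Cdk1 count and Hyperoxia 5 the highest level of its group. Without Hyperoxia 5 the value was -1.66 (adjusted p = 0.0402) and without Hyperoxia 1 it was -0.92 (adjusted p = 0.139). Ccnb1 and Ccnb2, the B-type cyclins that activate Cdk1, had log2 fold changes of -0.06 and -0.57 and did not pass.

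The passenger complex subunit Birc5 (survivin) was just outside the threshold, and passed it as lower in 6 of 10 analyses with another tool, filter, scaling or subset and in 1 of the 13 fits without 1 library. It was at 15.4, 24.8 and 34.3 CPM in Normoxia and at 8.35, 11.95 and 29.5 CPM in Hyperoxia, and the groups overlapped, with 4 of the 6 Hyperoxia libraries below every Normoxia library and Hyperoxia 3 among the Normoxia values. Its log2 fold change was -0.76 (SE 0.275, edgeR adjusted p = 0.0595). Without Hyperoxia 3 it was -1.05 (adjusted p = 0.00463), and within the runs of letters it was -0.36 (adjusted p = 0.567) and -1.17 (adjusted p = 0.0173).

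Of the checkpoint and anaphase genes, Ube2c alone had enough counts to test. This ubiquitin-conjugating enzyme of the anaphase promoting complex was at 4.11, 5.89 and 10.7 CPM in Normoxia and at 1.39, 4.07 and 5.67 CPM in Hyperoxia, with overlapping groups. Its log2 fold change was -0.78 (SE 0.337, edgeR adjusted p = 0.108).

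The proliferation marker Mki67 and the topoisomerase Top2a, which coat and untangle mitotic chromosomes, did not pass. Mki67 was at 11.03, 18.2 and 37.1 CPM in Normoxia and at 5.21, 15.8 and 24.1 CPM in Hyperoxia, and its log2 fold change was -0.57 (SE 0.341, edgeR adjusted p = 0.260). The estimate differed between the runs of letters, at -0.16 (adjusted p = 0.860) in B to M and -1.18 (adjusted p = 0.0230) in O to S; that difference was not tested. Top2a was at -0.12 (95% interval -0.63 to 0.38).

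No replication gene passed in either direction. By edgeR 0 of 12 passed, with 1 lower (Mcm4) and 0 higher at an unadjusted p under 0.05, and DESeq2 and limma-voom also gave 0. The intervals of 6 of the 12 lay within 1 log2 unit of 0. Without Hyperoxia 1, Mcm5 passed (-0.82, edgeR adjusted p = 0.0173), and within O to S, Pcna passed upward (0.59, edgeR adjusted p = 0.0428).

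The Mcm helicase, which unwinds DNA ahead of the polymerases, had all 6 subunits below 0: Mcm2 -0.74, Mcm4 -0.63, Mcm6 -0.60, Mcm5 -0.53, Mcm7 -0.49 and Mcm3 -0.14 on the log2 scale, with edgeR adjusted p from 0.111 to 0.773. Among the alternatives Mcm3 turned positive in 2 (at most 0.19) and Mcm6 in 1 (0.0009). Mcm2, the largest of these, was at 2.69, 5.51 and 6.87 CPM in Normoxia and at 0, 2.28 and 5.92 CPM in Hyperoxia (SE 0.457, adjusted p = 0.274). The subunits did not move together in Hyperoxia 1: Mcm2 was at 0, Mcm4 (5.90 CPM) and Mcm6 (1.07 CPM) were the lowest of their group and Mcm3 (35.9 CPM) the highest. Gins2, a subunit of the helicase's GINS partner, was at 0.02 (95% interval -0.55 to 0.58).

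The 3 tested deoxynucleotide enzymes had intervals wholly within 1 log2 unit of 0. Tk1, thymidine kinase, had the largest log2 fold change among those tested, -0.11 (SE 0.224, 95% interval -0.59 to 0.36, edgeR adjusted p = 0.770). It was at 14.2, 25.5 and 33.3 CPM in Normoxia and at 14.3, 25.3 and 28.1 CPM in Hyperoxia. Rrm1, the large subunit of ribonucleotide reductase, was at -0.10 (-0.48 to 0.28), and Tyms, thymidylate synthase, at 0.01 (-0.35 to 0.37).

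Of the clamp and maintenance genes, the methylation maintenance factor Uhrf1 was at 4.29, 5.60 and 6.99 CPM in Normoxia and at 2.62, 3.77 and 7.81 CPM in Hyperoxia (log2 fold change -0.40, SE 0.290, edgeR adjusted p = 0.358). Pcna, the sliding clamp, was at 0.20 (95% interval -0.36 to 0.77). Its value was -0.009 without Hyperoxia 3 and 0.40 without Hyperoxia 1.

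The G1/S regulators did not pass either. Ccne2, a cyclin E that activates Cdk2, was at 13.4, 19.6 and 29.9 CPM in Normoxia and at 7.65, 13.7 and 25.7 CPM in Hyperoxia (log2 fold change -0.53, SE 0.287, edgeR adjusted p = 0.201). E2f1, the founding E2F activator, was at -0.44 (95% interval -1.14 to 0.26).

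**Figure D3:**
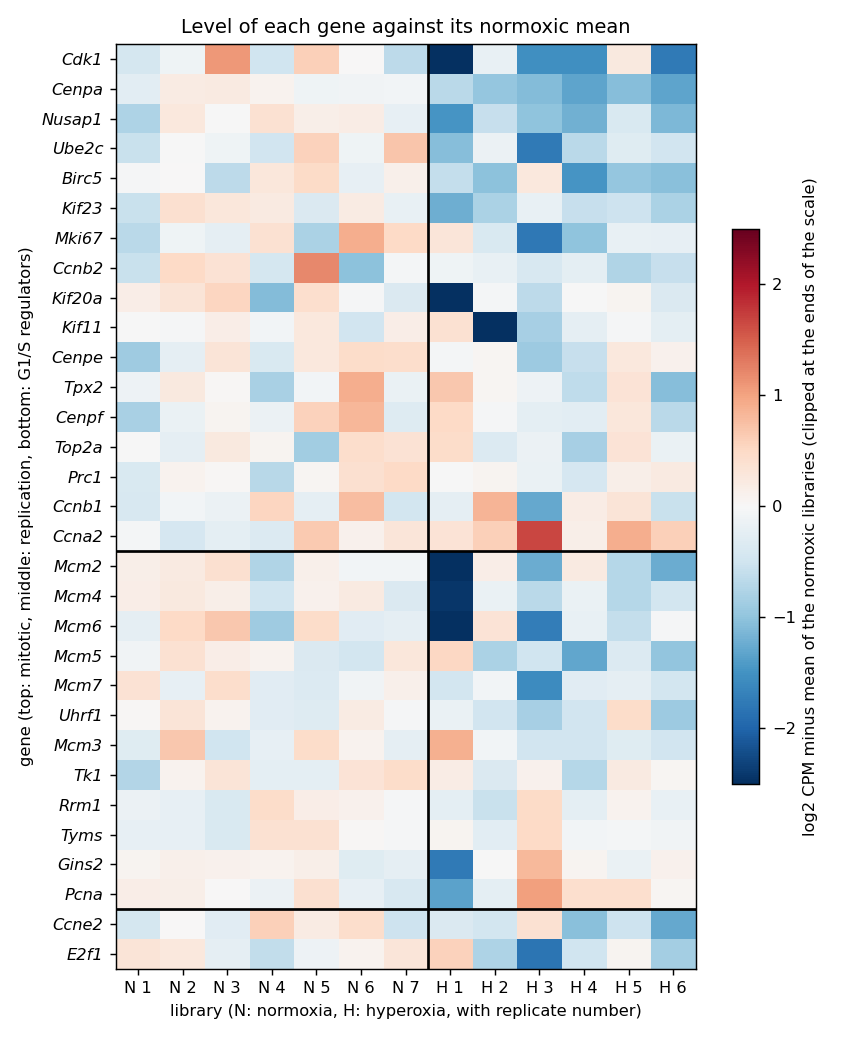
Each row is 1 of the 31 tested genes and each column 1 library (N, Normoxia; H, Hyperoxia); color is the log2 CPM minus the mean of the Normoxia libraries, red above and blue below. In 7 rows all 6 Hyperoxia columns lie below the Normoxia mean: Cenpa, Nusap1, Kif23, Ube2c, Ccnb2, Mcm4 and Mcm7. Of these Ube2c, Ccnb2, Mcm4 and Mcm7 did not pass the test, and the share of all genes with this pattern was not computed.

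The other 12 genes had too few counts for the test: 7 mitotic, 4 replication and Ccne1. Their counts over the 7 Normoxia and 6 Hyperoxia libraries were 52 and 11 for the checkpoint kinase Bub1, 25 and 6 for the mitotic kinase Plk1, 32 and 18 for the anaphase activator Cdc20, 49 and 27 for the checkpoint protein Bub1b, and 55 and 39 for the checkpoint kinase Ttk. The Aurora kinases Aurka and Aurkb had 39 and 35, and 22 and 15 counts. On the replication side, counts were 20 and 41 for the helicase activator Cdc45, 21 and 28 for the GINS subunit Gins1, 53 and 57 for the licensing factor Cdc6, and 55 and 48 for the reductase subunit Rrm2. The cyclin E gene Ccne1 had 22 and 19 counts. The 7 mitotic genes all had fewer counts in Hyperoxia, and of the 4 replication genes 1 did, at group totals of 19748608 counts in Normoxia and 19373648 in Hyperoxia. For Aurka the difference was slight, with a log2 fold change of -0.06 when no count filter was applied.

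With the count filter dropped, 6.04% of 19718 genes were lower and 7.34% higher, and of the 12 only Bub1 passed. It was at 1.19, 3.06 and 3.92 CPM in Normoxia and at 0, 0.403 and 1.31 CPM in Hyperoxia, with 2 Hyperoxia libraries at 0. The fitted log2 fold change was -2.10 (SE 0.623, edgeR adjusted p = 0.0291); at such counts it depends on the prior count. Plk1, with 3 Hyperoxia libraries at 0, was at -1.96 (adjusted p = 0.0900) and Cdc45 at 1.07 (adjusted p = 0.242). In this fit Cenpa, Nusap1 and Ccna2 also passed and Kif23 did not.

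Summed over each class, the levels overlapped between the groups. The 24 mitotic genes summed to 209, 274 and 307 CPM (lowest, median, highest) in Normoxia and to 165, 213 and 257 CPM in Hyperoxia. The 16 replication genes summed to 388, 416 and 486 CPM in Normoxia and to 283, 393 and 558 CPM in Hyperoxia. The mitotic sum as a percentage of the replication sum was 50.6, 61.3 and 75.6 in Normoxia and 41.1, 55.1 and 75.3 in Hyperoxia, and no test was run on it. The highest replication sum was in Hyperoxia 3 and the lowest in Hyperoxia 1.

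**Figure D4:**
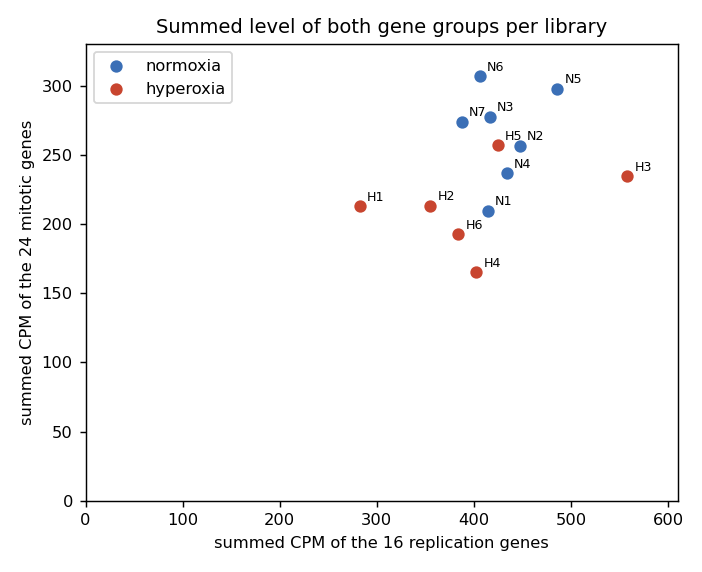
Summed CPM of the 16 replication genes (horizontal axis) against that of the 24 mitotic genes (vertical axis), 1 point per library, blue Normoxia and red Hyperoxia. Both groups overlap on both axes; Hyperoxia 1 (H1) and Hyperoxia 3 (H3) span the replication axis from 283 to 558 CPM.

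The wider pathway gave calls in both directions, to be read beside the 10.8% of all genes that fell and the 11.8% that rose. Of 78 other mitotic genes 50 were tested, 3 rose and 3 fell, and the median log2 fold change was -0.23. Those that rose were the kinetochore genes Cenpw (1.41) and Zwint (0.71) and the spindle protein Ckap2 (1.30); those that fell were the tubulin-destabilizing Stmn1 (-1.77), the Cdk1-activating phosphatase Cdc25b (-1.16) and the spindle motor Kif15 (-0.90, edgeR adjusted p = 0.0496, and 0.0967 with no filter, where 2 of the list fell). Without Hyperoxia 1, 7 fell in place of 3, in a fit where 13.3% of all genes fell. Of 53 other replication genes 42 were tested, 4 rose and 2 fell, with a median of -0.01. Without Hyperoxia 1, 3 rose and 3 fell, and with no filter 3 rose; Pole3 (0.51) was the rise that did not pass without Hyperoxia 1 (0.34, edgeR adjusted p = 0.0567). The largest rises were in the origin recognition subunit Orc2 (1.14), the polymerase epsilon subunit Pole4 (0.89) and the clamp loader subunit Rfc5 (0.80), and those that fell were Rpa3 of the single-strand binding complex (-1.22) and the licensing inhibitor Gmnn (-1.14). A protein-coding neighbour lies over the 3′ end of Orc2 (Nif3l1) and of Rfc5 (Wsb2). Of 19 cell cycle transcription factors and their partners 17 were tested, Mybl1 (A-Myb) rose (2.41) and E2f2 fell (-0.77), and the median was -0.15; without Hyperoxia 1, 2 of them fell.

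Neighbours matter for other members too, since 9 of the 43 have a protein-coding gene over their 3′ end: Ccna2, Cdc20, Ube2c, Kif20a, Prc1, Mcm7, Gins2, Tk1 and Ccne2. Over the 3′ ends of Mcm7 and Tk1 lie Cops6 (log2 fold change 0.41, edgeR adjusted p = 0.0279) and Gm20708 (0.91, adjusted p = 0.0390), which both rose. Over that of Gins2 lie Gse1 (-0.95, edgeR adjusted p = 0.0778) and Gm20388 (0.31, adjusted p = 0.566), which did not pass. Of the 3 genes that fell, none has such a neighbour over its 3′ end.

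Markers of some other cell types differed between the groups, to be read beside the 10.8% of all genes that fell and the 11.8% that rose. All 5 B cell markers fell, from a summed 136 to 191 CPM in Normoxia to 33.4 to 70.8 CPM in Hyperoxia, and so did both T cell markers that could be tested, with all 5 summing to 25.9 to 50.2 against 9.03 to 27.9 CPM. Of 5 alveolar type 2 markers, which include the surfactant proteins and mark the labelled tissue, 4 fell, from a sum of 12072 to 22656 to one of 3094 to 6684 CPM. Of 5 general capillary markers 3 fell (1999 to 4337 against 435 to 3999 CPM), and of 5 aerocyte markers 3 fell and 1 rose (317 to 417 against 208 to 313 CPM). Of the other lists of 5 markers, 3 monocyte markers fell and 1 rose (348 to 429 against 282 to 468 CPM), 2 alveolar macrophage markers fell (207 to 450 against 38.6 to 625 CPM), 1 alveolar type 1 marker fell (915 to 1338 against 588 to 1142 CPM), 1 erythroid marker fell (194 to 3400 against 169 to 2863 CPM), and 1 fibroblast marker rose (1473 to 2174 against 2032 to 2675 CPM). No neutrophil marker (102 to 198 against 41.3 to 244 CPM) and no neutrophil precursor marker (8.59 to 68.0 against 12.3 to 63.5 CPM, 1 of 5 tested and Elane at 0 throughout) passed. The part of these cell types in the lower Cenpa, Nusap1 and Kif23 was not tested.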

How the data were processed

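Mouse lung Quant-seq libraries (7 Normoxia, 6 Hyperoxia) were grouped by the labels. The authors made the deposited counts per gene with kallisto (0.46.1) in the BioJupies pipeline; mm10 and limma 3.54.2 are named in the submitters' processing notes, and the annotation and strand setting are not given in the sources used here. The deposited log10(CPM + 1) values matched those computed from the deposited counts to within 4.4e-16, and entered 1 alternative.

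Counts were tested with edgeR 4.0.16 (filterByExpr, TMM, quasi-likelihood, R 4.3.3) over all 13 libraries, with Benjamini-Hochberg adjustment over 12496 genes. Log2 CPM in plots used a prior count of 2. Intervals are 95%. Scripts were tested on simulated data. Alternatives used DESeq2 1.42.0, limma 3.58.1, other filters and scaling, the replicate block, letter runs and each library left out. Every gene of the set is named; levels are given for genes past the threshold and for the largest change in each role, and of the wider lists up to 3 rising and 3 falling genes are named. Bub1, Plk1 and Cdc45 levels, Pole3, Exosc9 and the neighbours were chosen after their values were seen. Members and lists were chosen with earlier results of these data known. Knl1, Sgo1 and Sgo2a were matched as Casc5, Sgol1 and Sgol2a.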

Additional observations from a re-analysis of the deposited data

Results flagged for a closer look

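In 6 of 66 sets of libraries examined (each tested gene in Normoxia or in Hyperoxia, plus summed levels), 1 library lay far from the rest by Dixon's ratio, the gap to the nearest library over the range. Genes were taken on the log2 CPM scale and summed levels on the CPM scale. Chance flags about 1 in 20, here about 3. In Hyperoxia 1, Kif20a was the lowest (ratio 0.864, at 0 CPM), Mcm4 was the lowest (0.757, 5.90 CPM) and Mcm3 was the highest (0.6995, 35.9 CPM). Kif11 was lowest in Hyperoxia 2 (0.677, 0 CPM), Mcm7 in Hyperoxia 3 (0.733, 4.86 CPM) and Mcm2 in Normoxia 4 (0.589, 2.69 CPM). None of these genes passed the test between the groups.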

How the results depend on the processing

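Low counts limit the set: 12 of 43 genes could not be tested and 3 counts correspond to up to 1.84 CPM. None of the 4 genes called over all 13 libraries changed direction under any alternative run. Of the 31 tested genes 18 kept 1 sign throughout and 13, none of them among those 4, did not. The count of mitotic genes that rose was 1 and became 0 with limma on the deposited log values, with library size scaling, with the replicate block, within letters B to M and within O to S, and ranged from 0 to 1 when each library was left out (0 without Normoxia 1, 2, 3 or 4, or Hyperoxia 3 or 5). The count of mitotic genes that fell was 3 and became 0 within B to M, where 441 of 12724 genes fell, against 1346 of 12496 over all libraries. It was 4, with Birc5 added, under DESeq2, limma-voom, the deposited log values and library size scaling, and 2 to 4 when each library was left out. The count of replication genes that rose was 0 and became 1 within O to S, and that of those that fell ranged from 0 to 1 (1 without Hyperoxia 1). The mitotic median was -0.24 when at least 10 counts were required in every library, which left 8 of the 17 genes, and the replication median of -0.27 was -0.075 with no filter (16 genes) and -0.10 within B to M. Limma on the deposited log values moved the median of all genes from -0.03 to -0.16. The replicate numbers do not pair the libraries: same-numbered deviations correlated at -0.33 to 0.27 over 6 pairs. With the replicate block Cenpa and Nusap1 still fell and Kif23 and Ccna2 no longer passed, while over all genes 718 rose and 626 fell, against 1473 and 1346. The cause of these shifts was not tested.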
